A study of Mus musculus with 10 samples.

Results

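The genes described here are the heat shock proteins and the DnaJ (Hsp40) chaperones of the mouse heart. They were chosen by symbol alone: every protein-coding gene whose symbol begins with Hsp90, with Hspa, Hspb, Hspd, Hspe or Hsph, or with Dnaja, Dnajb or Dnajc and a number was taken, and Hspg2, which encodes the matrix proteoglycan perlecan, was left out. This gave 72 genes with 71 symbols, of 16973 protein-coding genes and 23195 genes in all, since Hspa14 is the symbol of 2 overlapping gene identifiers on chromosome 2. Hearts were dissected at embryonic day 13.5 from 5 wildtype male embryos and 5 Nos1ap null male embryos of the C57BL6/J strain, and polyA RNA was sequenced with a stranded kit. The null embryos were homozygous for the constitutive tm1d allele, which lacks exon 4 of Nos1ap in every cell and was made with a CMV-Cre line. Nos1ap encodes the adaptor protein of neuronal nitric oxide synthase, and the comparison asks how its loss changes the transcriptome of the embryonic heart. Whole hearts were used, so every value is a mean over all cell types of the heart, and fewer cells of a type cannot be told apart from less RNA per cell.

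Heat shock proteins hold unfolded polypeptides, fold them and pass them on. Hsp70 proteins (Hspa genes) do so in cycles of ATP hydrolysis, DnaJ proteins bring them their substrates and switch on the hydrolysis through the J domain, and the larger Hsp110 relatives (Hspa4, Hspa4l, Hsph1) exchange the nucleotide afterwards. Hsp90 proteins take over clients at a late stage of folding, the chaperonin Hspd1 with its lid Hspe1 folds proteins in the mitochondrial matrix, and the small heat shock proteins (Hspb genes) hold partly unfolded proteins without ATP and are abundant in striated muscle. The cytosol, the endoplasmic reticulum (ER) and the mitochondria each have an Hsp70, a set of DnaJ partners and other chaperones of their own. Cytosolic members are induced by heat and other stress through heat shock factors, which bind repeats of the unit GAA in alternating orientation, and ER members through the unfolded protein response, in which factors bind the ER stress element.

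The values are normalized counts, which are read counts divided by a size factor for the depth of each library. The deposited table gives a mean for each genotype, and counts of single libraries were recovered from these means as described in the methods, for 98.8% of the wildtype and 99.1% of the null means under 1000. Libraries are numbered 1 to 5 within each genotype in order of falling size factor, which is not the numbering of the sample labels. Read pairs counted in the genes of the deposited results were estimated at 11328000 to 14023000 per library. This is not the number of read pairs sequenced, which was not estimated. Nos1ap itself had a normalized count of 144 ± 14.4 (SD, n = 5) in wildtype and 39.9 ± 5.20 (SD, n = 5) in null hearts, with no overlap between 126 to 161 and 31.1 to 44.4. The heart was represented by its markers, of which Myh7 had authors' means of 128200 and 129900 in wildtype and null. Wildtype library 3 stood apart from the other 9 libraries: 6 neuronal and glial markers with recovered counts summed to 1320 in it and to 180 to 243 elsewhere, with Stmn2 at 575 against 19.6 to 41.9, and the summed markers of skeletal muscle (218 against 45.5 to 121) and lung epithelium (55.0 against 8.04 to 16.6) were highest in it as well, though single markers such as Tnnt3 were not. Of 6 erythroid markers, all but Hbb-bs had a higher mean in null than in wildtype hearts, with a median log2 ratio of 0.42. Counts of single libraries were recovered for Epb42 in wildtype hearts only, where it read 157, 54.2, 148, 293 and 59.0. The part of these cell types in the results below was not tested beyond the values given without a library.

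The promoters of the members show which of them carry the elements of the heat shock and the unfolded protein response. RefSeq promoters (GRCm38.p6, from 250 bases before to 50 bases after the annotated start) were at hand for 57 of the 71 symbols. A pair of heat shock units (GAANNTTC or TTCNNGAA, which cover both strands) was found in 15 of the 57, or 26.3%, against 17.0% of all 27025 genes with a promoter. Among 12 members of the heat shock response, a list written from textbook knowledge that also holds the mainly constitutive Hspa8 and Hsp90ab1 and is called heat-inducible here, 9 had a promoter and 7 of them (77.8%) held the pair: Hspa1a, Hspa1b, Hsph1, Hspb1, Hspd1, Hspe1 and Dnaja1. A run of 3 such units with 2 bases between neighbours, which contains the pair, was found in Dnajb6, Hspd1, Hspe1 and Hsph1, or 7.02% of the 57, against 0.662% of all genes. The ER stress element (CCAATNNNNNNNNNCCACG or its reverse complement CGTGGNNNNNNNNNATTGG) was found in Hspa5, Hsp90b1 and Dnajc3, which are 27.3% of the 11 ER members with a promoter, against 0.137% of all genes. A match is a description of these letters and not a measured binding site. The ER stress element was chosen after the data were seen, and none of these shares is a test of enrichment.

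The stretches below are shown for the stress-inducible Hsp70 pair, which was among the most variable members between hearts of one genotype, and for the small heat shock protein, the mitochondrial lid and the ER chaperones that led their groups in abundance or carried the element. Capitals mark the heat shock units or the ER stress element, and each stretch is read on the strand of its gene.
Hspa1a, chr17:34972223-34972290, minus strand: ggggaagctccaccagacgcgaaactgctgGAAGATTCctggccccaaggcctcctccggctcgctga
Hspa1b, chr17:34959305-34959372, minus strand: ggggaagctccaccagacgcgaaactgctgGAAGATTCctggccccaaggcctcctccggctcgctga
Hspb1, chr5:135887772-135887859, plus strand: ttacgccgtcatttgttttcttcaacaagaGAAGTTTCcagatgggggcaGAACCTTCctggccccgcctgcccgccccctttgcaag
Hspe1, chr1:55088054-55088081, plus strand: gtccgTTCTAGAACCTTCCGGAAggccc
Hspa5, chr2:34772020-34772048, plus strand: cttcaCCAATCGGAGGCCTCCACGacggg
Hsp90b1, chr10:86705513-86705686, minus strand: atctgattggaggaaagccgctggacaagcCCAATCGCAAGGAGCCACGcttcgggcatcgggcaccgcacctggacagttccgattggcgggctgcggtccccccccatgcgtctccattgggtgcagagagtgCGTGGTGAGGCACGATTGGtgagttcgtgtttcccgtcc
Dnajc3, chr14:118937797-118937875, plus strand: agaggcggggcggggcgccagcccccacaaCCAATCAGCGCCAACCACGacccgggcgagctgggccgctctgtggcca

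The stretches of Hspa1a and Hspa1b were identical, and their whole promoters differed at 4 of 300 bases, 3 of them before the start. The genes lie 9951 bases apart on chromosome 17, and Hspa1l begins 546 bases beyond Hspa1a on the opposite strand. Hspb1 held 2 separate pairs. Hspe1 and Hspd1 are transcribed away from each other on chromosome 1. By their RefSeq starts the same element is in both promoters, and it was counted in both. By the GENCODE M21 positions the genes overlap by 112 bases, and the element lies outside this overlap and inside the bounds of Hspd1. Hsp90b1 held the ER stress element in both orientations.

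Levels were compared between genes per kilobase of exons. Hsp90ab1, the constitutive cytosolic Hsp90, was the most abundant member in wildtype hearts at 9774 normalized counts per kb and ranked 26 among 16928 protein-coding genes. It was followed by Hspa8, the constitutive cytosolic Hsp70, at 5838, by the cardiac small heat shock protein Hspb7 at 4594, by Hspb1 (Hsp25) at 3618 and by the mitochondrial chaperonin Hspd1 at 2628. These 5 members held 58.4% of the summed level per kb of all members in wildtype and 58.6% in null hearts. Of the members, 4 were among the 100 and 13 among the 1000 most abundant protein-coding genes per kb. The levels ran over a 1028-fold range from Hsp90ab1 to Hspbap1 among the members with a mean of at least 10. All members together held 1.25% of the normalized counts of all genes in wildtype and 1.23% in null hearts.

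**Figure D1:**
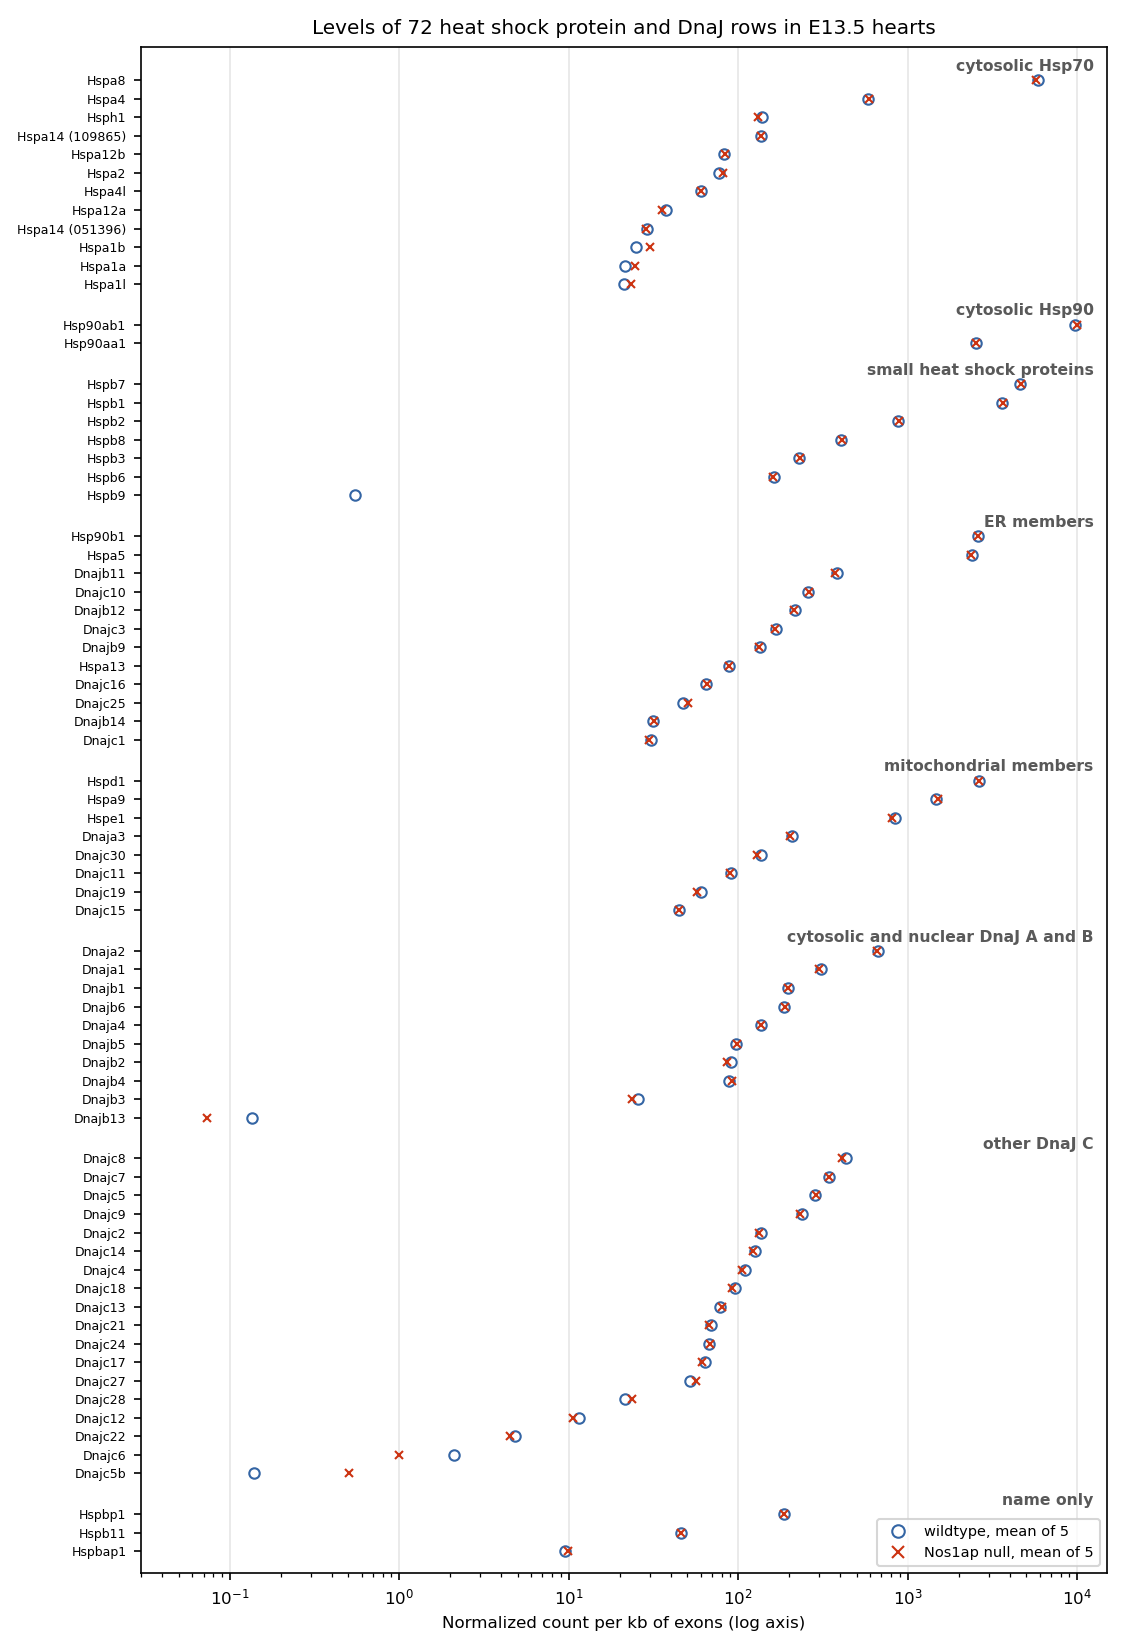
Level of each member per kilobase of exons on a log axis, as the authors' group mean of 5 wildtype (open circles) and 5 Nos1ap null (crosses) hearts, ordered by family and level; Hspb9 was at 0 in null hearts and has no cross there, and the 2 identifiers of Hspa14 are told apart by their last digits. The 2 symbols lie on each other for nearly every member with a level over 100, and the family sums differed by at most 0.02 on the log2 scale.

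The 2 cytosolic Hsp90 genes held 27.2% of the summed level per kb in wildtype and 27.4% in null hearts. The constitutive Hsp90ab1 was 3.84 times as abundant per kb as the inducible Hsp90aa1 (2545) in wildtype and 3.93 times in null hearts. Both had means over 1000, for which no counts of single libraries were recovered, so their log2 ratios of authors' means, null over wildtype, of 0.02 and -0.01 have no error. Of the windows of 100 bases in the Hsp90aa1 transcript, 47.5% occurred in other annotated genes, mostly in Gm12346, so that its reads may be shared with this pseudogene.

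The 7 small heat shock proteins taken by symbol held 21.8% in wildtype and 22.0% in null hearts. Cryab, kept with the co-chaperones, is not among these 7 and had authors' means of 3936 and 3860 in wildtype and null. Of the 7, Hspb7 and Hspb1 led, and Hspb2 (877 per kb), Hspb8 (403), Hspb3 (228) and Hspb6 (162) followed in wildtype. All of these are known from muscle, whereas the testis gene Hspb9 was close to absent. Hspb9 had 1 read in each of wildtype libraries 2 and 5 and 0 in the other 8 libraries, and a count of 0 over the 5 null hearts allows a mean normalized count of up to 0.607. The 6 expressed genes had log2 ratios between -0.02 and 0.03. Hspb3, the only one of the 6 with counts in all libraries, read 204, 177, 160, 175 and 174 in wildtype and 181, 212, 193, 154 and 170 in null libraries 1 to 5. Its groups overlapped over nearly their whole range.
For the others, Hspb8 read 733 to 856 over the wildtype libraries, Hspb2 695 to 824 and Hspb6 309 to 454 over the null libraries. Of the windows of Hspb1, 42.7% occurred in the pseudogene Hsp25-ps1, so that reads of Hspb1 may be shared with this pseudogene.

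The 12 cytosolic Hsp70 and Hsp110 genes held 15.6% in wildtype and 15.3% in null hearts, and Hspa8 made up 82.9% of that. The Hsp110 gene Hspa4 reached 580 per kb and Hsph1 138, and the stress-inducible Hspa1b and Hspa1a only 24.9 and 21.4. Hspa8 was thus 126 times as abundant per kb as Hspa1a and Hspa1b together in wildtype hearts and 104 times in null hearts. The null ratio includes null library 2, without which the summed normalized count of the pair was 133 in both genotypes. Hspa12b, known from endothelium, was at 81.9 and Hspa2, known from germ cells, at 77.3 per kb. Hspa1l lies beside Hspa1a and was close to it in level, at 21.3. Reads of Hspa8 (62.8% of windows found in other genes, mostly Gm15459), Hspa1b (49.9%) and Hspa1a (48.6%, mostly each other) may be divided among the copies by the counting software.

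The 12 ER members held 14.1% in wildtype and 14.1% in null hearts, and their log2 ratios ran from -0.04 to 0.11. Hsp90b1 (Grp94) at 2593 and Hspa5 (BiP), the ER Hsp70, at 2387 per kb stood far over the 9 DnaJ genes of the ER list. Of these, Dnajb11 led with 385, followed by Dnajc10 with 259, the tail-anchored Dnajb12 with 215 and Dnajc3 with 166. Dnajb9, a BiP partner induced by the unfolded protein response, was at 135. Hspa5 was 1.79 times as abundant per kb as the 9 ER DnaJ genes together in wildtype and 1.78 times in null hearts. The sum is over the list, whose genes were not chosen as partners of BiP. The 3 genes with the ER stress element, shown above, had log2 ratios of 0.01 (Hsp90b1), -0.02 (Hspa5) and -0.01 (Dnajc3). 

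The 8 mitochondrial members held 12.1% in wildtype and 12.1% in null hearts. Hspd1 (2628 per kb), the mitochondrial Hsp70 Hspa9 (1466) and Hspe1 (847) led, and the DnaJ genes Dnaja3, a partner of Hspa9, at 207, and Dnajc19 and Dnajc15, of the import motor, at 60.5 and 44.5 were lower. Hspd1 exceeded Hspe1, its neighbour on the chromosome, 3.10-fold per kb in wildtype and 3.25-fold in null hearts. Hspa9 was 2.72 times the sum of the 5 mitochondrial DnaJ genes in wildtype and 2.89 times in null hearts. Of the windows of Hspd1 and Hspe1, 26.9% and 20.4% occurred in other genes.

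The 10 DnaJ genes of class A and B of the cytosol and nucleus held 3.96% in wildtype and 3.92% in null hearts, and the 18 other DnaJ genes of class C 4.71% and 4.63%. Dnaja2 (666 per kb) and Dnaja1 (307), the general partners of Hspa8, led the first group, followed by Dnajb1 (198), Dnajb6 (185) and Dnaja4 (136). Hspa8 was 3.25 times their sum in wildtype and 3.21 times in null hearts. Among class C, Dnajc8, a splicing protein, was at 431, Dnajc7, which binds both Hsp70 and Hsp90, at 343, Dnajc5, the cysteine string protein of secretory vesicles, at 284, and the histone chaperone Dnajc9 at 238. Dnajb13, a sperm flagellum gene, and Dnajc5b had 3 and 4 reads over all 10 libraries, and Dnajc22 was near 9. The 3 genes that match by name only, Hspbp1 (an exchange factor of Hsp70), Hspb11 (an intraflagellar transport protein) and Hspbap1 (a binder of Hspb1), held 0.53% in both genotypes.

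The genotypes were compared gene by gene on the recovered counts. Of the 72 members, 49 had counts in both genotypes, and 44 of these had a mean of at least 10 and were tested with limma among 10328 protein-coding genes. None of the 44 was called at an adjusted p below 0.01 and an absolute log2 fold change over 1, thresholds at which 0.029% of all tested genes were called. None of the 44 reached an unadjusted p below 0.05 by limma, nor by limma with voom weights, where 3.55% of all genes did so by limma. None had separate ranges in the 2 genotypes, where 0.784% of all genes had. Counts of 0 among 44 members are near these shares and do not set the members apart from other genes. The smallest unadjusted p was 0.0909 (Dnajc27), and the smallest adjusted p was 0.998. The 95% confidence interval of the log2 fold change lay within 0.25 of zero for 31 of the 44 and within 0.5 for 41, with a median half-width of 0.14, so a change of 2-fold in either direction lay outside the interval for each tested member, the farthest bound being 0.63 (Hspa1b).

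Taking the ratio of authors' means for the 67 members with a mean of at least 10, 33 were higher and 34 lower in null hearts, with a median of -0.0005 and a range from -0.12 (Dnajb3) to 0.27 (Hspa1b). The median over 13299 protein-coding genes with that mean was -0.0009. The absolute log2 ratio was under 0.1 for 59 of the 67 (88.1%) and for 76.0% of all genes. These shares were not matched on the mean count, and the largest ratios among the members were at low counts, so they are not compared further. The 23 members without counts in both genotypes, which include 19 with means of at least 1000 in both, ranged from -0.07 (Hsph1) to 0.05 (Hspa9). These 23 have no test.

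**Figure D2:**
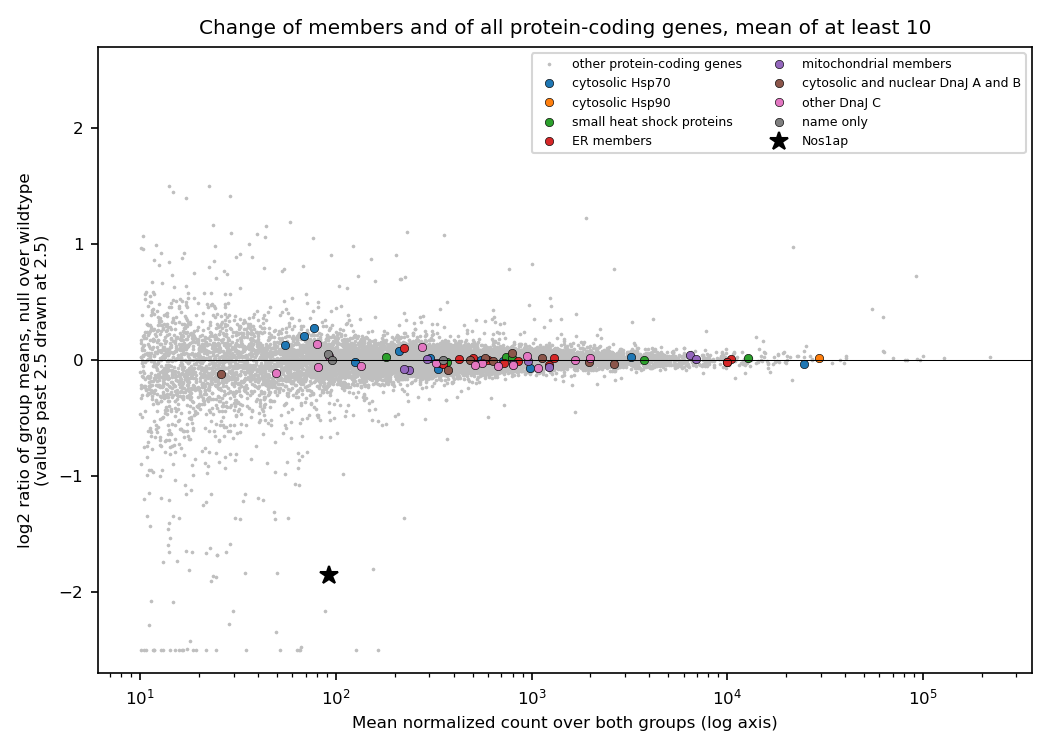
Log2 ratio of the authors' group means (null over wildtype) against the mean normalized count on a log axis for protein-coding genes with a mean of at least 10, with members coloured by family, other genes in grey and Nos1ap as a star; ratios past 2.5 are drawn at 2.5. The members stay between -0.12 and 0.27, and the largest ratios among them are at low counts.

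The 12 heat-inducible members had a median log2 ratio of -0.0073, and 5 were higher and 7 lower in null hearts. The 8 of them without counts in both genotypes were Hsph1 (authors' means 1002 and 954 in wildtype and null), Hspe1 (1248 and 1199), Dnaja1 (2653 and 2594), Hspa8 (25110 and 24565), Hsp90aa1 (10005 and 9924), Hspb1 (3731 and 3740), Hspd1 (6943 and 6990) and Hsp90ab1 (29313 and 29761). Dnajb1 (Hsp40), the DnaJ gene most used as a sign of a heat shock response, read 637, 575, 659, 624 and 671 in wildtype and 600, 677, 667, 605 and 608 in null libraries 1 to 5. Its log2 fold change was -0.004 ± 0.052 (SE), and the null values lay within the wildtype range but for a single library just over it. Hspa4l, an Hsp110 gene, read 677, 752, 645, 760 and 735 in wildtype and 767, 704, 735, 697 and 640 in null libraries, with a log2 fold change of -0.01 ± 0.05. The groups overlapped over nearly their whole range.

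Hspa1a and Hspa1b, the stress-inducible Hsp70 genes, had a single null heart far from the other 4. Hspa1a read 64.4, 45.5, 76.3, 76.4 and 54.8 in wildtype and 62.1, 125, 54.4, 60.1 and 65.3 in null libraries 1 to 5, and Hspa1b read 72.2, 55.2, 56.0, 91.8 and 73.5 in wildtype and 65.7, 131, 70.6, 82.7 and 71.9 in null libraries. Null library 2 was 2.04 times the median of the other null libraries for Hspa1a and 1.84 times for Hspa1b, from 124 and 130 reads, whereas every other null library lay within the wildtype range of both genes. The log2 fold changes were 0.16 ± 0.21 (SE) and 0.25 ± 0.18, with unadjusted p of 0.451 and 0.188 by limma and exact permutation p of 0.643 and 0.381 (two-sided, 252 arrangements). Since reads of these 2 genes are shared, their sum is the safer value: it was 133 ± 24.1 (SD, n = 5) in wildtype, 255 in null library 2 and 133 ± 8.26 (SD, n = 4) in the other null libraries. Without null library 2 the log2 ratio of the sums was 0.00004, so that the higher mean in null hearts rested on this library.

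Other genes were high in null library 2 as well. The immediate early genes Atf3 and Zfp36, which respond to stress and to dissection, read 294 and 324 in it against 173 to 260 and 224 to 285 in the other null libraries, but the summed level of the 10 immediate early genes with recovered counts was 2475 in it, not far from 2402 and 2430 in null libraries 4 and 5, and Fos was 58.3, within 42.3 to 73.0 of the others. The same sum was 2088 to 2277 over the wildtype libraries, and 2181 and 2151 in null libraries 1 and 3. Whether the immediate early genes bear on the level of the Hsp70 pair was not tested. Of the other heat-inducible genes with counts, Dnajb1 was 677 in it against 600 to 667 in the other null libraries, and Hspa4l was 704 against 640 to 767. Hspa1l, a testis gene beside Hspa1a, read 40.9, 57.1, 47.8, 45.4 and 72.4 in wildtype and 63.0, 59.3, 55.5, 48.3 and 62.1 in null libraries, so null library 2 was inside the range of the others. Its log2 fold change was 0.15 ± 0.15.

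**Figure D3:**
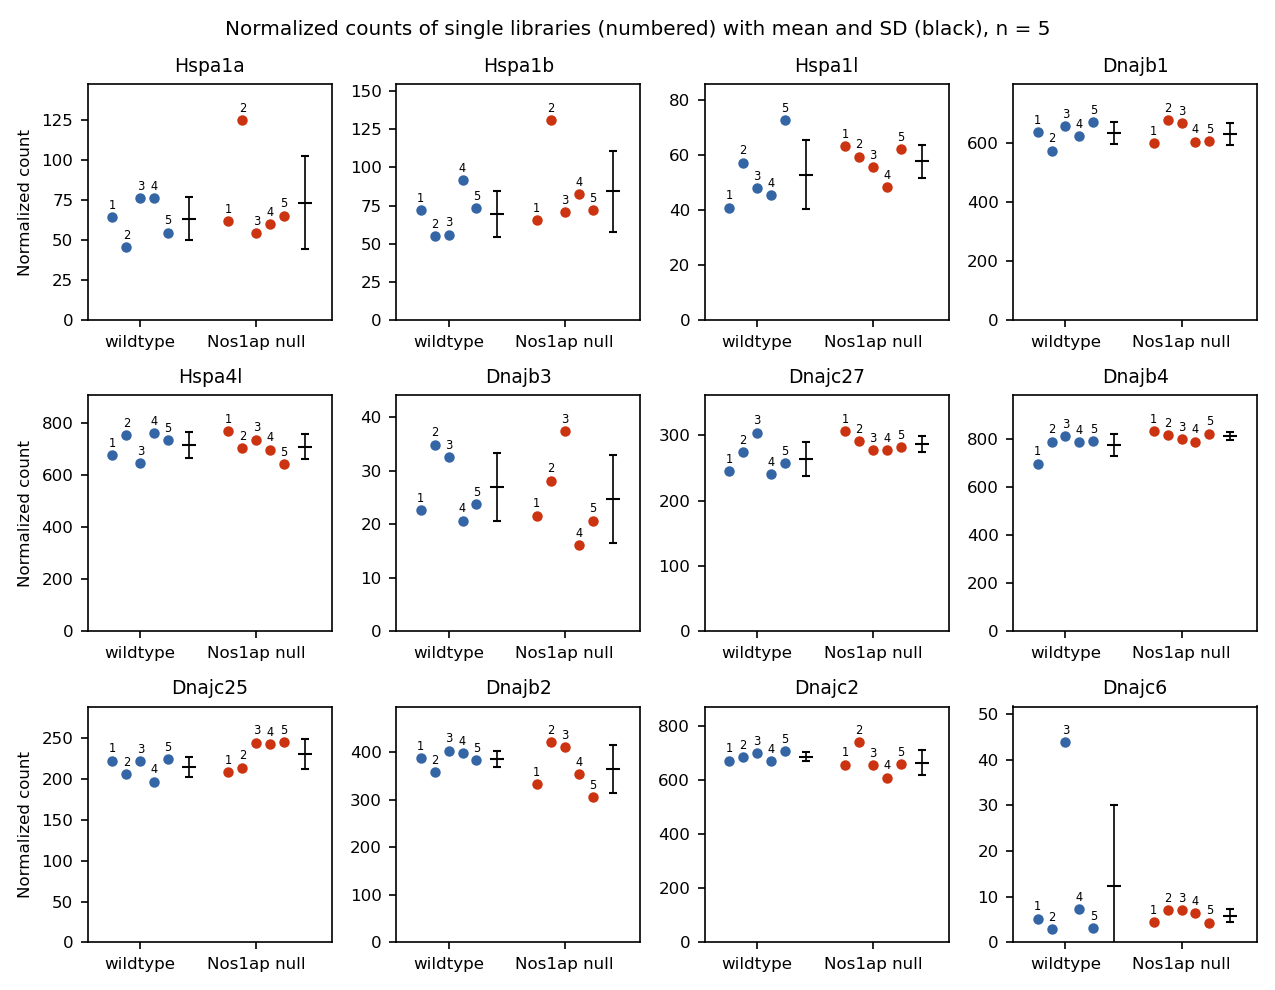
Normalized count of 12 members in each library (numbered 1 to 5 by size factor, horizontally offset for clarity), with the mean and SD of 5 libraries in black; the vertical axes start at 0, where the lower end of the wildtype bar of Dnajc6 is cut. Null library 2 stands at 125 and 131 for Hspa1a and Hspa1b and wildtype library 3 at 43.8 for Dnajc6, and the genotypes overlap in every panel.

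Among the members with the smallest p, the sizes were small. Dnajc27, a GTPase with a J domain, read 245, 274, 304, 240 and 258 in wildtype and 306, 292, 277, 277 and 282 in null libraries 1 to 5. The log2 fold change was 0.12 ± 0.07 (SE), with an exact permutation p of 0.111 (two-sided). All null libraries lay over 4 of the 5 wildtype libraries. The exception was wildtype library 3, in which the summed neuronal and skeletal muscle markers were highest. Without it the ranges were separate and the unadjusted p was 0.0162 by limma, with an adjusted p of 0.997, in a setting where 1.36% of all genes had separate ranges and 3.30% passed an unadjusted p of 0.05.

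Dnajb4, a partner of Hsp70 in heart and muscle, read 698, 789, 811, 786 and 789 in wildtype and 831, 814, 800, 788 and 822 in null libraries, with a log2 fold change of 0.07 ± 0.04. Wildtype library 1 was the low one, and 3 of the other 4 reached into the null range. Dnajc25, an ER membrane protein, read 223, 206, 222, 197 and 224 in wildtype and 209, 214, 245, 243 and 245 in null libraries, with 0.11 ± 0.07. Of its null libraries, 3 lay over all wildtype libraries and 2 among them.

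Dnajb2, a neuronal co-chaperone that also is made in muscle, read 388, 358, 403, 397 and 383 in wildtype and 332, 420, 410, 353 and 305 in null libraries, with a log2 fold change of -0.09 ± 0.08. The null libraries were spread on both sides of the wildtype libraries. Dnajc30, a mitochondrial protein, read 243, 227, 209, 225 and 236 in wildtype and 210, 245, 189, 207 and 228 in null libraries (-0.08 ± 0.08), and Dnajc19, of the mitochondrial import motor and known for a cardiomyopathy when lost, read 272, 259, 222, 250 and 214 in wildtype and 243, 247, 216, 216 and 228 in null libraries (-0.08 ± 0.08). In both the groups overlapped.

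Hspa12a, a distant Hsp70 relative, read 298, 355, 384, 331 and 347 in wildtype and 328, 315, 320, 355 and 313 in null libraries, with -0.07 ± 0.07. Dnajc2, a ribosome-bound chaperone, read 672, 684, 700, 670 and 707 in wildtype and 657, 739, 656, 609 and 659 in null libraries, with -0.05 ± 0.05. In Dnajc2, 4 null libraries lay below every wildtype library and null library 2 above every one, and without null library 2 the ranges were separate (log2 fold change -0.09 ± 0.04, unadjusted p of 0.0552 by limma), where 2.43% of all genes had separate ranges. Dnajc28 read 64.4, 84.2, 80.4, 79.5 and 73.5 in wildtype and 85.5, 74.4, 76.6, 75.2 and 108 in null libraries, with 0.13 ± 0.12, and null library 5 was the highest of all 10.

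The spread between hearts of one genotype was measured as the SD of log2(normalized count + 1), pooled over the genotypes. Among the 44 tested members it was largest for Hspa1a (0.40), Dnajb3 (0.39), Hspa1b (0.35), Hspa1l (0.25) and Hspbap1 (0.20), which are among the tested members with the fewest reads. Each member was therefore placed among the 500 tested genes of nearest mean. The median position was 56.7%, close to the middle, and the members furthest up were Hspa13, an ER Hsp70 relative, with more spread than 96.0% of its neighbours, Dnaja4 with 94.8%, Dnajc3 with 94.4%, Dnajb2 with 92.4% and Dnaja3 with 92.0%, followed by Hspa1a with 91.0%. At the other end were Dnajc12 with 1.80%, Dnajb14 with 2.0% and Dnajb12 with 2.60%, the last 2 being membrane proteins of the ER.

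Hspa13 read 526, 630, 599, 571 and 672 in wildtype and 626, 505, 627, 652 and 587 in null libraries, and its null library 2 was the lowest of all 10. Dnaja4 read 494, 503, 379, 514 and 542 in wildtype and 518, 508, 462, 482 and 461 in null libraries, so that wildtype library 3 was the low one. Dnajb3, an intronless gene on chromosome 1, read 22.6, 34.8, 32.6, 20.6 and 23.8 in wildtype and 21.6, 28.2, 37.3, 16.1 and 20.7 in null libraries, from 15 to 37 reads a library, and its log2 fold change was -0.14 ± 0.23. Hspbap1 read 73.9, 82.3, 103, 80.5 and 109 in wildtype and 90.9, 109, 97.8, 83.8 and 82.8 in null libraries, with 0.06 ± 0.12. Of the 44 tested members, 17 had their highest null value in null library 2 and 15 their lowest in null library 5. The median deviations from the mean of the genotype were 0.04 and -0.04 on the log2 scale. These counts were not made over all tested genes, so they cannot be read as particular to the members. Leaving out null library 2 or null library 5 gave 5.68% or 2.96% of all genes an unadjusted p under 0.05 by limma, against 3.55% with all libraries.

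**Figure D4:**
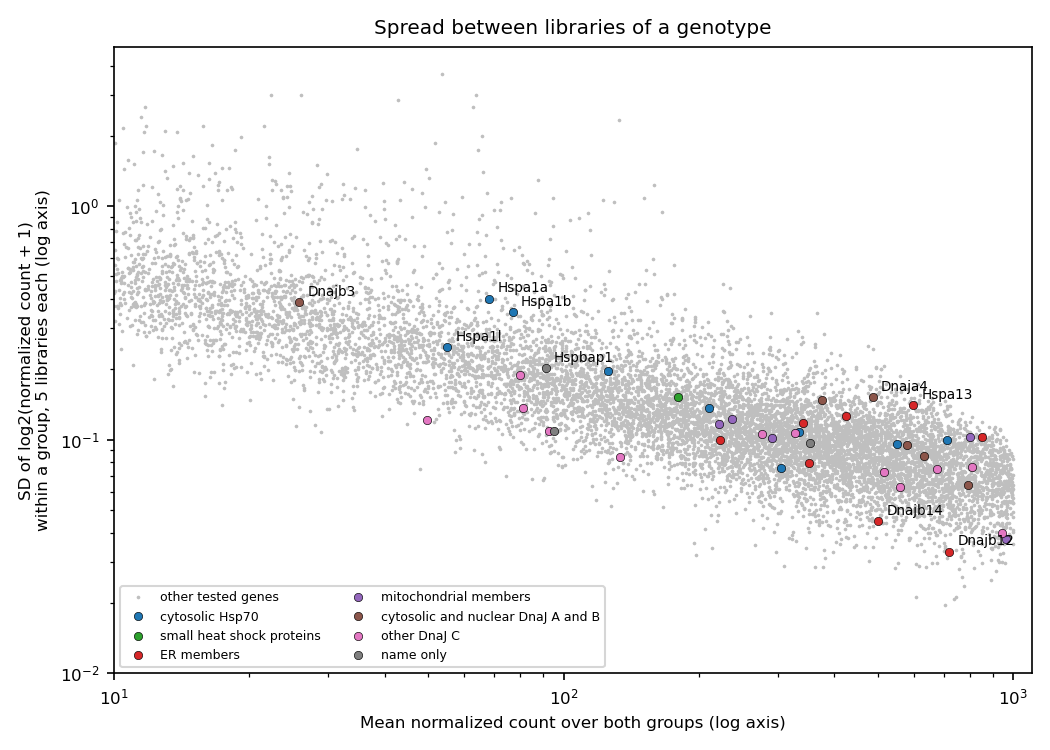
SD of log2(normalized count + 1) within a genotype, pooled over 5 wildtype and 5 null libraries, against the mean normalized count, both on log axes, for the 44 tested members (coloured by family) and all other tested genes (grey). Hspa1a and Hspa1b lie at the upper side of genes of like mean at 0.40 and 0.35, and Dnajb12 and Dnajb14 at the lower side.

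Of the 5 members with counts in all libraries but a mean under 10, Dnajc6 (auxilin), which uncoats clathrin vesicles in neurons, had a single library far from the rest. It read 5.22, 2.90, 43.8, 7.22 and 3.10 in wildtype and 4.50, 7.04, 7.06, 6.44 and 4.36 in null libraries 1 to 5. The high value was in wildtype library 3, in which the neuronal markers were highest. The authors' means of 12.4 and 5.88 gave a log2 ratio of -1.08, and without this library the wildtype mean was 4.61 and the ratio 0.35. Dnajc22 read 6.96, 10.6, 5.09, 6.19 and 15.5 in wildtype and 7.20, 8.04, 10.1, 7.52 and 8.71 in null libraries, and the groups overlapped.

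The other genes of the chaperone system were taken from lists of known members, and log2 ratios are given for those with a mean of at least 10. Of the heat shock factors and their binding protein, Hsf1, the main activator of the heat shock response, read 513, 517, 503, 471 and 519 in wildtype and 499, 467, 518, 446 and 470 in null libraries, with a log2 fold change of -0.07 ± 0.05, and Hsbp1 had authors' means of 1103 and 1069. Hsf4 had a mean under 10 and was not tested. None of 8 tested of 20 co-chaperones, none of 5 tested of 13 subunits of the cytosolic chaperonin and prefoldin, and none of 6 tested of 8 genes of mitochondrial protein quality control passed an unadjusted p of 0.05 by limma or was called, where 3.55% and 0.029% of all genes did. Counts of 0 in lists this short are near that background. The 2 largest log2 ratios were -0.07 (Bag5) and -0.06 (Fkbp4) for co-chaperones, -0.09 (Pfdn5) and -0.08 (Pfdn1) for chaperonin and prefoldin and -0.08 (Grpel2) and 0.05 (Clpx) for the mitochondrial list. The median log2 ratios of these lists were -0.03, -0.01 and -0.01.

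Of 16 genes of ER folding and the unfolded protein response, 7 were tested, 1 was below an unadjusted p of 0.05 by limma (1.84% of all genes were so and lower in null hearts), and the median log2 ratio was -0.03. This gene was Creld2, a target of the unfolded protein response, which read 421, 416, 463, 468 and 450 in wildtype and 375, 407, 417, 407 and 391 in null libraries, so that 1 null library reached the lowest wildtype value. Its log2 fold change was -0.15 ± 0.05 (SE), with an unadjusted p of 0.0112 and an adjusted p of 0.998 by limma. Manf, a secreted protein of the same response, had authors' means of 1183 and 1092 and a log2 ratio of -0.12, with no test. Among 12 immediate early genes, of which 10 were tested, Zfp36 had an unadjusted p of 0.0182 and an adjusted p of 0.998 by limma, and 1.71% of all genes were so and higher in null hearts. Its log2 fold change was 0.22 ± 0.09, and null library 2 was its highest value. The 12 immediate early genes had a median log2 ratio of 0.08, with a range from -0.11 to 0.23. No test was made over this list.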

How the data were processed

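PolyA RNA-seq libraries of E13.5 hearts from 5 wildtype and 5 Nos1ap null males were grouped by title. Per the methods of the study, adapters and low-quality bases were trimmed by the authors (Trimmomatic 0.36), and reads were aligned to GENCODE M10 transcripts of GRCm38 (STAR within RSEM 1.2.31). Gene counts were then compared by the authors with DESeq 1.24.0. RSEM divides reads that fit several genes among them by estimate. The deposited values used here are signal: normalized counts, the count of a gene over the library's size factor, as group means that the authors computed for all libraries and for each genotype. The other deposited columns hold the authors' fold changes, p-values and adjusted p-values, and were not used.

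Each group mean is a sum of 5 whole counts, each in a fixed step of 1 over 5 size factors. The steps were read from genes with few counts, and whole counts giving the printed mean were searched in a reduced lattice for means under 1000 (all sets searched under 200, otherwise the set nearest to equal expression where at most 0.01 others were expected by chance). Size factors recomputed from the recovered counts were within 0.85% of the steps. Genes that differ widely between libraries are recovered less often. Recovery and test were tried on simulated counts, with a spread taken from the recovered counts. Of the sets recovered there, 0 were wrong. Limma gave an adjusted p under 0.05 to 20.5% of genes with a log2 change of 0.25 and to 89.5% with a change of 1. Of the 44 tested members, 13 had a single possible set of counts in both genotypes. For the other tested members the nearest set was used in a genotype or in both.

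The tests were made with limma (3.58.1; trend and robust) in R (4.3.3) on log2(normalized count + 1) over protein-coding genes with a mean of at least 10, with Benjamini-Hochberg adjustment over all of them. Fold changes are on that scale, which understates the change of low genes. Ratios of authors' means have no error. Exact permutation tests were two-sided over 252 arrangements (smallest p 0.00794). Exon lengths, positions and shared windows of 100 bases came from GENCODE M21 (GRCm38). Promoters came from RefSeq (GRCm38.p6).

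The members and lists, the heat-inducible and ER lists among them, were chosen with earlier results of these data known, and the ER stress element was chosen after the data were seen. Described singly are the 10 members with the smallest p, the heat-inducible members, the 5 with the largest spread and the most abundant of each family. In other lists, the called genes or the 2 with the largest ratio were named. Other genes, such as Dnajc6, Dnaja4, Hspa13, Hspb3 and Dnajc22, and those named beside a library that stands apart, were chosen after their values were seen. Alternatives were another pseudocount (0.5), voom, filters on the mean (50 or none), rescaling, single-set genes only and leaving out each library. No protein sequence was used here, and some marker genes are not reported here.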

Additional observations from a re-analysis of the deposited data

Results flagged for a closer look

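The values of single libraries were screened in 95 groups of 5 libraries for a sample far from the other 4, of which chance alone would mark about 4.75. There were 6 such values. Hspa1a at 124.7 and Hspa1b at 130.7 in null library 2 stood over 54.4 to 65.3 and 65.7 to 82.7 in the other null libraries, and these genes share reads. Dnajc6 at 43.77 in wildtype library 3 stood over 2.90 to 7.22, and Dnajc4 at 150.6 in the same library over 130 to 134. Dnajb4 at 697.7 in wildtype library 1 lay under 786 to 811, and Dnajc9 at 595.3 in wildtype library 2 over 555 to 561.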

How the results depend on the processing

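No member was called in any of the 18 alternatives, and none passed an unadjusted p of 0.05 in 15 of 16. Leaving out each library in turn gave 0 to 1 such members and 0 to 1 with separate ranges: Dnajc27 (both) without wildtype library 3 and Dnajc2 (ranges) without null library 2. No paired analysis was possible because the deposited means carry no replicate numbers. The median log2 ratio stayed between -0.0028 and 0.0002. The named members kept an adjusted p of at least 0.836 in every alternative, and the sign turned for Dnajb1 in 5, Hspa4l in 4, Hspbap1 in 2 and Hspa1a in 1 of 13. Hspa1a turned without null library 2, and each of these values lay within 0.05 of zero. The log2 fold change of Nos1ap stayed between -1.88 and -1.75, and 2 to 3 genes were called in all. Ratios per kb between genes depend on the length taken. The exons of Hspa8 cover 4301 bases and its longest transcript 3158, and those of Hspe1 1474 and 964. Such ratios were not recomputed by the longest transcript. The wildtype shares per compartment depend on length as well. Without length, and without Hsp90ab1, they were 20.9% and 19.8% for cytosolic Hsp70, 25.8% and 7.17% for cytosolic Hsp90, 12.2% and 27.8% for small heat shock proteins, 17.8% and 18.0% for ER, 11.2% and 15.4% for mitochondrial members, 5.68% and 5.05% for class A and B, 6.12% and 6.0% for class C and 0.353% and 0.681% for the genes that match by name only. By the longest transcript Dnajc7 led class C in place of Dnajc8, and the other 7 leaders were the same. Depth limits Dnajb3, Hspa1l and the Hspa1 pair, with 15 to 130 reads a library, and members over 1000 have no error.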
